A study of Mus musculus with 17 samples.

Results

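The genes described here are 10 markers of oligodendrocyte precursors and of newly formed oligodendrocytes. They are Pdgfra and Cspg4 (precursor markers), Olig1, Olig2 and Sox10 (transcription factors of the whole lineage), and Gpr17, Bcas1, Enpp6, Itpr2 and Myrf (markers of committed precursors and newly formed cells). They were taken by symbol from the count file of every library, and all 10 were found among the 52373 gene identifiers that both labelled batches share. None was chosen by its values in these libraries, although earlier results of the same data were known when the genes were chosen.

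The RNA came from micro-dissected corpus callosum, the main white matter tract of the brain, of male GFAP-Cre+/- Rpl22HA/wt mice. In these mice Cre under the GFAP promoter, which targets astrocytes, switches on an HA tag on the ribosomal protein Rpl22, and tagged ribosomes were pulled down with their RNA. Mice aged 8 to 9 weeks at the start ate chow with 0.2% (w/w) cuprizone, a copper chelator that kills oligodendrocytes, for 5 weeks. Brains were taken at that point (5 weeks, demyelination), after 0.5 weeks back on normal chow (5.5 weeks, early remyelination) or after 2 weeks (7 weeks, late remyelination). Mock mice of matching age carried the same alleles and ate normal chow throughout. There were 3 cuprizone and 2 mock libraries at 5 weeks, 3 of each at 5.5 weeks and 3 of each at 7 weeks.

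Oligodendrocyte precursors divide in response to platelet-derived growth factor through Pdgfra. A precursor that leaves the cell cycle passes through a committed stage marked by Gpr17, then forms myelin under the control of Sox10 and Myrf. In demyelinated white matter, precursors are the main source of the cells that make new myelin. Because the pull-down aims at astrocytes and whole-tissue RNA was not used here, enrichment of any transcript over the tissue was not tested. A change in these transcripts can reflect fewer cells or less RNA per cell, which cannot be told apart in bulk libraries, and which cells carried the tagged ribosomes was not measured.

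The sequences just upstream of Pdgfra, Enpp6 and Itpr2 are shown because the genes differed from mock in opposite directions at 5 weeks, Pdgfra being lower and the other two higher in the cuprizone library. Each window holds the 250 bases before the RefSeq transcription start (GRCm38.p6) and is written 5′ to 3′ on the strand of the gene. RefSeq promoter windows were at hand for 5 of the 10 genes. The windows were searched on both strands for the E-boxes CAGCTG and CATATG, the SOX motif ACAAAG and the MYRF motif CTGGCAC or CTGGTAC. None matched in any of the 5 windows, so no base is in capitals.
Pdgfra, chr5:75152001-75152250, plus strand: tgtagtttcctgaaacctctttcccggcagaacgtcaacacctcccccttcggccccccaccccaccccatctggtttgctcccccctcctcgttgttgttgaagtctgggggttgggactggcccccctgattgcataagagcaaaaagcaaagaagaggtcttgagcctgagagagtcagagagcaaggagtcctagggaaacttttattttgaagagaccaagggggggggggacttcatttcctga
Enpp6, chr8:46986637-46986886, plus strand: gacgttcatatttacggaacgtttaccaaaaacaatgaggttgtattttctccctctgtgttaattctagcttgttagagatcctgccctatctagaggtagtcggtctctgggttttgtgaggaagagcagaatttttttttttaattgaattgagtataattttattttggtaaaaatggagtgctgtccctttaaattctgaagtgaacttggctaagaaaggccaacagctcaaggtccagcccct
Itpr2, chr6:146502224-146502473, minus strand: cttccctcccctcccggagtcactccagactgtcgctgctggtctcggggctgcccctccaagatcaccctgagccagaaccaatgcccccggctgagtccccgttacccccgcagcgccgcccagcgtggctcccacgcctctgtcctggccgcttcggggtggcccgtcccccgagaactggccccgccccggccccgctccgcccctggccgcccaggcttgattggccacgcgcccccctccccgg
The base composition differed widely, with 54.4% G and C in the Pdgfra window, 38.4% in the Enpp6 window and 74.4% in the Itpr2 window. Among all 32851 windows of the same length, 13% held CAGCTG, 3.46% CATATG, 16.5% ACAAAG and 5.93% the MYRF motif. The lack of a match says only that these letters are not in these windows.

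The deposited values were read counts per gene, given here as CPM, the count scaled to a common library total. In 8 of the 17 libraries the values track another library of the same group: between 46.6% and 96.2% of genes with 500 or more counts lay 1 to 10 counts above that library. In pairs outside these sets at most 4.26% of such genes lay within 10 counts of each other. The lowest share is that of 5-week mock 1, in which 3575 of 6720 such genes lay further above. Each such set was used as 1 library, which left 9. At 5.5 weeks these are 3 cuprizone libraries and mock 1 and 3. The 5-week groups are left with cuprizone 1 and mock 2, and the 7-week groups with cuprizone 2 and mock 3. The 9 libraries held 20797535 to 30400048 counts. The 7-week cuprizone library had 34576 genes with a count, against at most 23980 in the other 8. The summed level of 12 astrocyte markers was 8952 to 19740 CPM, that of 22 mature oligodendrocyte markers 11747 to 27487 CPM and that of 10 neuronal markers 7813 to 13141 CPM, so transcripts of other cell types were abundant in every library. All 5-week libraries carry the label batch 1 and all later ones batch 2. A contrast of 5 weeks with a later week therefore cannot be told apart from the batch.

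All 10 genes were read in every library. Of the 80 values of these genes in the 8 repeating libraries, 66 lay within 10 counts of the library they repeat and 14 lay further away. Olig2 was among the exceptions in 5 of the 8 repeating libraries, and 6 of the 14 exceptions were in 5-week cuprizone 2, where Sox10 had 1978 counts against 1430 in the library it repeats. Repeats are named below as repeats and enter no mean or test.

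**Figure D1:**
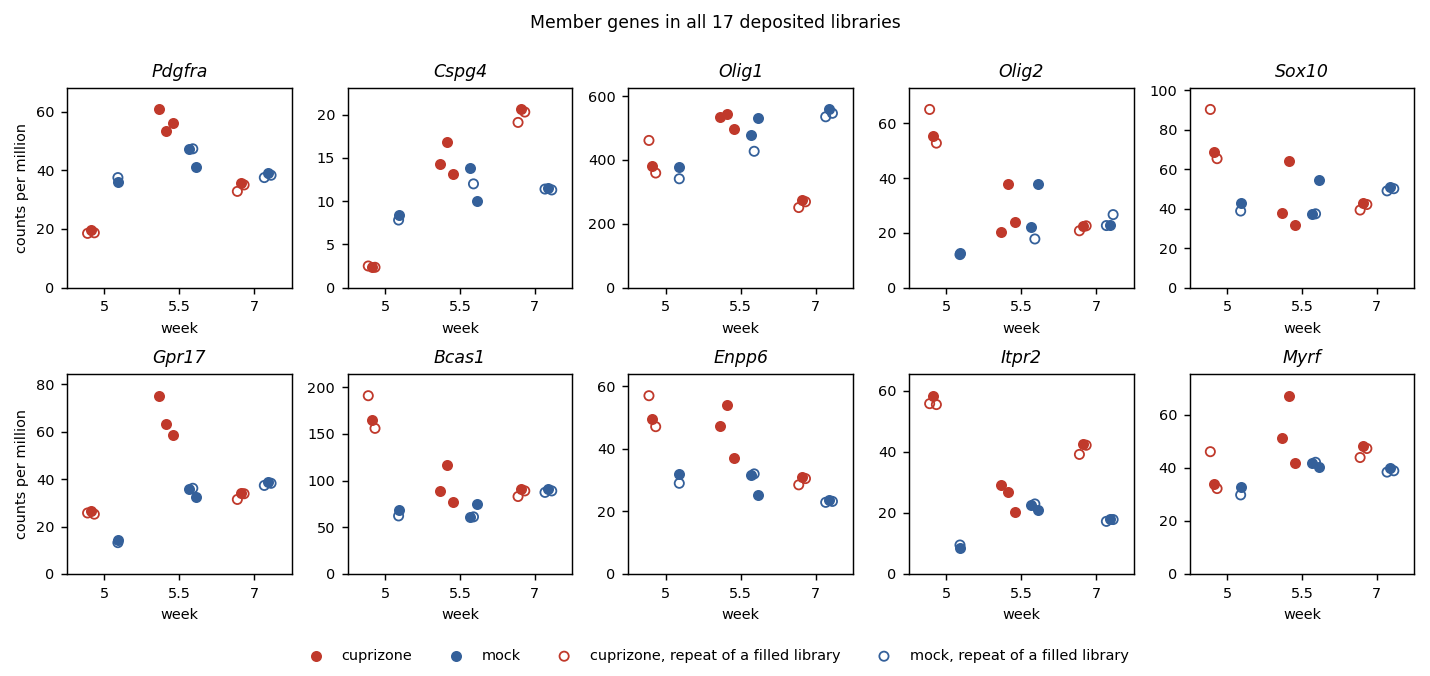
Level of each of the 10 genes (CPM, 1 panel per gene) in all 17 deposited libraries by week, cuprizone in red left of mock in blue; filled points are the 9 libraries used and open points repeat a filled one. Cuprizone points lie below mock at 5 weeks for Pdgfra and Cspg4, above mock at 5 and 5.5 weeks for Gpr17, and below mock at 7 weeks for Olig1.

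Per kilobase of exon, Olig1 was the most abundant of the 10 genes in each group, with 127 to 258 CPM per kb, followed by Bcas1 with 18 to 43.7 CPM per kb and Sox10 with 14 to 22.5 CPM per kb. Cspg4 was the least abundant in each group except 5-week mock, where Itpr2 was lowest with 0.57 CPM per kb. At 5.5 weeks, where replicates exist, the Olig1 range lay clear of that of Bcas1 in both groups, while Bcas1 overlapped Sox10 in both. In the 3 cuprizone libraries of that week each neighbour from Bcas1 down to Pdgfra overlapped the next, so that part of the order is not resolved.

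The 3 comparisons ask how these markers stood against mock at the end of cuprizone feeding, at the start of remyelination and late in remyelination. At 5 weeks the genes split: Olig2, Bcas1 and Itpr2 were higher in the cuprizone library by more than 2-fold, and Cspg4 was lower. At 5.5 weeks Gpr17 rose 1.92-fold and no other gene of the 10 passed the test. At 7 weeks Olig1 was 2.61-fold lower in the cuprizone library and the other 9 genes differed by less than 2-fold.

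At 5.5 weeks, 1 of the 10 genes passed edgeR's quasi-likelihood test (adjusted p under 0.05 over 16086 genes), where 1.08% of all tested genes were called higher and 0.392% lower. The cuprizone and mock libraries did not overlap for 5 of the 10 genes, Pdgfra, Gpr17, Bcas1, Enpp6 and Myrf, each higher after cuprizone, against 13.4% of all tested genes with cuprizone wholly higher. The median log2 fold change of the 10 genes was 0.33, against 0.00 for all tested genes, and 8 of the 10 were above 0. At 5 weeks, 3 of the 10 genes were higher in cuprizone by 2-fold or more, against 8.82% of the 11570 genes measured. Another 1 was lower by as much, against 12.2% of all, and the median log2 ratio was 0.56 for the 10 genes and -0.01 for all. At 7 weeks 0 of the 10 were higher by 2-fold or more and 1 was lower, against 10.8% and 4.03% of the 12208 genes measured, and the median log2 ratio was -0.37 for the 10 genes and -0.16 for all. The 5-week and 7-week comparisons have 1 library per group and no test, and their intervals are exact (Clopper-Pearson) 95% intervals that cover counting error only. A gene was measured there if it reached 5 CPM in either library, which Cspg4 did at 5 weeks through the mock library alone. A gene that reaches it through 1 library alone enters partly because it differs. Fold changes are on the TMM scale of edgeR, which moved the log2 ratios by -0.10 at 5 weeks and by -0.37 at 7 weeks against scaling by the total count.

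**Figure D2:**
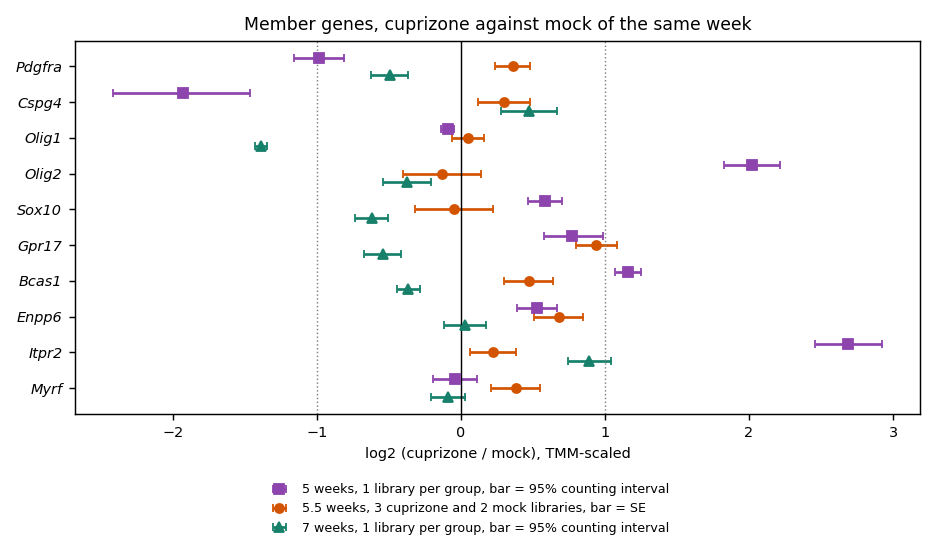
Log2 ratio of cuprizone to mock (TMM-scaled, x axis) for the 10 genes at each week; bars are 95% counting intervals at 5 and 7 weeks (1 library per group) and standard errors at 5.5 weeks (3 cuprizone and 2 mock libraries), and dotted lines mark 2-fold. Itpr2 and Olig2 lie farthest right at 5 weeks (2.67 and 2.01), Cspg4 farthest left (-1.88), and Olig1 lies past the left line at 7 weeks (-1.39).

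Pdgfra, the receptor for platelet-derived growth factor AA that sustains precursor division, had 19.5 CPM in 5-week cuprizone (repeats 18.5 and 18.7) and 35.9 CPM in 5-week mock (repeat 37.5). This is 1.98-fold lower after cuprizone (1.75 to 2.24), just under the 2-fold mark, and with the repeats cuprizone 2 or 3 in its place the log2 ratio passed that mark (-1.15 and -1.12). At 5.5 weeks it had 60.7, 53.4 and 56 CPM in the cuprizone libraries, against 47.1 and 41.2 CPM in mock (repeat 47.3). Every cuprizone library was above both mock libraries, but the log2 fold change of 0.36 ± 0.12 (SE) did not pass the test (edgeR adjusted p = 0.252). Pdgfra at 7 weeks had 35.8 CPM in cuprizone (repeats 32.8 and 35) and 39.1 CPM in mock (repeats 37.5 and 38.3), a TMM-scaled ratio of 0.71 (0.65 to 0.776) and a ratio of plain CPM of 0.915. Pdgfra in the cuprizone libraries was thus lowest at 5 weeks and highest at 5.5 weeks, while mock stayed between 35.9 and 47.3 CPM. In the annotation its exons overlap Gm42802, Gm42803 and Mir7025, and whether reads were counted by strand is not given in the sources used here, so overlapping genes may share reads.

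Cspg4 encodes the NG2 proteoglycan on the surface of precursors and also marks pericytes, the contractile cells of small vessels. It had few reads at 5 weeks, with 49 counts (2.36 CPM) in cuprizone and 177 counts (8.35 CPM) in mock, 3.8-fold lower after cuprizone (2.75 to 5.32). The repeats were close to the libraries they repeat, at 2.51 and 2.36 CPM for cuprizone and 7.82 CPM for mock. At 5.5 weeks Cspg4 had 14.3, 16.8 and 13.1 CPM in cuprizone, against 13.8 and 10 CPM in mock. The groups overlapped, and the log2 fold change was 0.30 ± 0.18 (SE; edgeR adjusted p = 0.601). By 7 weeks Cspg4 had 20.6 CPM in cuprizone and 11.5 CPM in mock, a TMM-scaled ratio of 1.39 (1.21 to 1.59) and a ratio of plain CPM of 1.79. In that library the summed level of 8 pericyte markers was 329 CPM, against 23.3 CPM in 7-week mock and 23 to 29.8 CPM in the other 7 libraries. Of the 7 that reached 5 CPM at 7 weeks, 5 did so through the cuprizone library alone. The part of pericytes in the 7-week Cspg4 level was not tested. At 5 weeks the pericyte sums were 27.5 CPM in cuprizone and 23 CPM in mock, with Kcnj8, Abcc9, Anpep and Higd1b at 0 in both libraries.

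Olig1 is a helix-loop-helix factor of the whole oligodendrocyte lineage. It had 380 CPM in 5-week cuprizone and 378 CPM in 5-week mock, and 534, 543 and 496 CPM in 5.5-week cuprizone, against 478 and 532 CPM in 5.5-week mock. The groups overlapped at 5.5 weeks (log2 fold change 0.05 ± 0.11, SE; edgeR adjusted p = 0.904). At 7 weeks Olig1 had 275 CPM in the cuprizone library (repeats 251 and 269) and 558 CPM in mock (repeats 535 and 546). That is 2.61-fold lower after cuprizone on the TMM scale (2.54 to 2.69), and the ratio of plain CPM was 0.493. At 5 weeks the 2 scales gave 0.938 and 1.01, on either side of no change. At 7 weeks 0.876% of the genes measured had a lower log2 ratio. Its annotated exons share 157 bases with the opposite-strand transcript Gm15966.

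Olig2, the related factor that specifies the lineage, lies on chromosome 16 as Olig1 does and had another pattern. At 5 weeks it had 55.5 CPM in cuprizone (repeats 65.1 and 52.8) and 12.8 CPM in mock (repeat 12.1), 4.05-fold higher after cuprizone (3.55 to 4.64). At 5.5 weeks it had 20.5, 38 and 24.1 CPM in cuprizone, against 22.2 and 37.7 CPM in mock, and at 7 weeks 22.7 CPM in cuprizone and 22.8 CPM in mock. The 5.5-week libraries of each group were spread nearly as wide as the 2 groups together (log2 fold change -0.13 ± 0.27, SE; edgeR adjusted p = 0.91). The 7-week ratio was 0.772 on the TMM scale (0.689 to 0.864) and 0.994 in plain CPM. Its sign at 5.5 weeks turned in some alternatives, as did that of Sox10.

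Sox10, a high-mobility-group factor that switches on myelin genes, had 68.8 CPM in 5-week cuprizone (repeats 90.2 and 65.3) and 42.8 CPM in 5-week mock (repeat 38.8), a ratio of 1.5 (1.38 to 1.63). At 5.5 weeks it had 37.7, 64.3 and 31.5 CPM in cuprizone, against 37.3 and 54.5 CPM in mock (log2 fold change -0.05 ± 0.27, SE; edgeR adjusted p = 0.969). Cuprizone 2 and mock 3 were the highest libraries of their groups for both Olig2 and Sox10 at that week. At 7 weeks Sox10 had 42.8 CPM in cuprizone and 51.1 CPM in mock, a TMM-scaled ratio of 0.652 (0.602 to 0.705).

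Gpr17, a G protein-coupled receptor that is present for a short time between the precursor and the myelinating cell, was the gene called at 5.5 weeks. It had 75.1, 63.3 and 58.6 CPM in the cuprizone libraries, against 36 and 32.3 CPM in the mock libraries (repeat 36.1). The lowest cuprizone library was well above the highest mock library. The means were 65.6 ± 8.51 CPM (SD, n = 3) in cuprizone and 34.2 ± 2.67 CPM (SD, n = 2) in mock. The log2 fold change was 0.94 ± 0.14 (SE), at an edgeR adjusted p of 0.00596. Without mock 3 the change was 0.87 and the call was lost (edgeR adjusted p = 0.0759), and over the other alternatives the adjusted p was between 2.69e-09 and 0.0359. At 5 weeks Gpr17 had 26.6 CPM in cuprizone (repeats 25.7 and 25.2) and 14.5 CPM in mock (repeat 13.2), a ratio of 1.71 (1.49 to 1.98). By 7 weeks Gpr17 had 34.3 CPM in cuprizone (repeats 31.4 and 33.8) and 38.8 CPM in mock (repeats 37.3 and 38.2). The TMM-scaled ratio was 0.686 (0.627 to 0.75) and the ratio of plain CPM 0.883. Of the genes measured at 7 weeks, 26.2% had a lower log2 ratio. Gpr17 was thus higher after cuprizone at 5 and 5.5 weeks and lower at 7 weeks, with 1 library per group at 5 and 7 weeks. Its exons share 188 bases with Lims2 on the opposite strand, which averaged 31.9 ± 3.08 CPM (SD, n = 3) in 5.5-week cuprizone and 29.3 ± 3.82 CPM (SD, n = 2) in mock (edgeR adjusted p = 0.804).

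Enpp6, a choline-specific phosphodiesterase that appears as new oligodendrocytes form, came next at 5.5 weeks. It had 47.2, 53.9 and 37.2 CPM in cuprizone, against 31.8 and 25.4 CPM in mock. Each cuprizone library was above both mock libraries. The log2 fold change of 0.68 ± 0.17 (SE), or 1.6-fold, missed the threshold (edgeR adjusted p = 0.0799). Its adjusted p was between 0.000195 and 0.464 over the alternatives, and DESeq2 on the same libraries called it (adjusted p = 0.0076). Enpp6 had 49.6 CPM in 5-week cuprizone (repeats 57 and 47.1) and 32.1 CPM in 5-week mock (repeat 29), a ratio of 1.44 (1.31 to 1.59). Enpp6 at 7 weeks had 31.1 CPM in cuprizone and 23.6 CPM in mock, a ratio of 1.02 on the TMM scale (0.923 to 1.13) and 1.32 in plain CPM.

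Bcas1 marks oligodendrocytes that are starting to myelinate. It had 165 CPM in 5-week cuprizone (repeats 191 and 156) and 68.9 CPM in 5-week mock (repeat 62.2), 2.23-fold higher after cuprizone (2.1 to 2.38). With the repeat cuprizone 3 in its place the log2 ratio was 0.99, just under 2-fold. At 5.5 weeks it had 89.3, 117 and 77.5 CPM in cuprizone, against 61.1 and 75.1 CPM in mock. The groups did not overlap, by a small margin, and the log2 fold change of 0.47 ± 0.17 (SE) did not pass the test (edgeR adjusted p = 0.293). By 7 weeks Bcas1 had 90.9 CPM in cuprizone and 91 CPM in mock, a ratio of 0.999 in plain CPM and 0.776 on the TMM scale (0.734 to 0.821). Bcas1 exons overlap the opposite-strand transcripts Bcas1os1 and Bcas1os2.

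Itpr2, an endoplasmic calcium channel of newly formed oligodendrocytes that astrocytes also express, differed most at 5 weeks. It had 58.3 CPM in cuprizone (repeats 55.7 and 55.4) and 8.44 CPM in mock (repeat 9.48), 6.44-fold higher after cuprizone (5.5 to 7.58). Of the genes measured at 5 weeks, 98.9% had a lower log2 ratio. At 5.5 weeks Itpr2 had 29.2, 26.7 and 20.4 CPM in cuprizone, against 22.7 and 21 CPM in mock, and the groups overlapped (log2 fold change 0.22 ± 0.16, SE; edgeR adjusted p = 0.683). At 7 weeks it had 42.6 CPM in cuprizone (repeats 39.1 and 42.1) and 17.9 CPM in mock (repeats 17.2 and 17.8). The 7-week ratio was 1.85 on the TMM scale (1.67 to 2.06) and 2.39 in plain CPM, so that scaling decides on which side of 2-fold it falls. Of 12 astrocyte markers, Gfap alone was at least 2-fold higher after cuprizone in the same libraries, with 10022 CPM in cuprizone and 870 CPM in mock at 5 weeks, and 4074 CPM in cuprizone and 1156 CPM in mock at 7 weeks. Sox9 was just under that mark at 5 weeks, with a ratio of 1.99 (1.93 to 2.05), and had a 7-week ratio of 0.96. Fgfr3 was more than 2-fold lower at 5 weeks, with 24.9 CPM in cuprizone and 54.2 CPM in mock. The median log2 ratio of the 12 was -0.25 at 5 weeks and -0.05 at 7 weeks. The part of astrocytes in the Itpr2 level was not tested.

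Myrf, a membrane-bound transcription factor needed to start and keep myelin gene expression, was close to mock at 5 weeks, with 34.1 CPM in cuprizone (repeats 46.1 and 32.2) and 32.7 CPM in mock. The ratio was 0.973 on the TMM scale (0.875 to 1.08) and 1.04 in plain CPM. At 5.5 weeks it had 51.3, 67.2 and 42 CPM in cuprizone, against 41.7 and 40.5 CPM in mock. The lowest cuprizone library lay just above the highest mock library, and the log2 fold change of 0.38 ± 0.17 (SE) did not pass the test (edgeR adjusted p = 0.457). At 7 weeks it had 48.2 CPM in cuprizone and 39.8 CPM in mock, a ratio of 0.94 on the TMM scale (0.867 to 1.02) and 1.21 in plain CPM, which differ in direction.

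The differences at 5, 5.5 and 7 weeks were set against each other in 1 edgeR fit of the 9 libraries, in which the lone libraries take their spread from the 5.5-week groups. Between 7 and 5.5 weeks, both in batch 2, the log2 ratio of cuprizone to mock was lower at 7 weeks for 3 genes. The difference (7 minus 5.5 weeks) was -1.46 ± 0.25 (SE) for Gpr17, -1.41 ± 0.21 for Olig1 and -0.82 ± 0.24 for Pdgfra, in that order at edgeR adjusted p of 0.000794, 0.000201 and 0.0233. These 3 of the 10 genes compare with 17.2% of all 20292 genes in that contrast. With scaling by the total count, Gpr17 (-1.12) and Olig1 (-1.07) kept the call at edgeR adjusted p of 0.00587 and 0.00205. Pdgfra (-0.49) lost it at an edgeR adjusted p of 0.159, and Itpr2 gained one, with a difference of 1.04 (edgeR adjusted p = 0.019). The fit assumes that a lone library varies as the 5.5-week replicates do, which could not be checked. The 7-week cuprizone library, which this contrast uses, had 34576 genes with a count, against at most 23980 in any other library used. What this does to the differences was not tested.

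Other genes of the lineage were read from lists of the same kind. Among 20 other markers of committed precursors and newly formed oligodendrocytes, 5 passed the test at 5.5 weeks and all 5 rose (Zfp488, Sirt2, Cemip2, Casr and 9630013A20Rik). Of all genes tested in that week, 1.08% were called higher. The median log2 fold change was 0.57 over the 20. DESeq2 on the same libraries called 9 of the 20 and limma 5. The transcript 9630013A20Rik averaged 43.3 ± 6.23 CPM (SD, n = 3) in cuprizone and 14.6 ± 0.58 CPM (SD, n = 2) in mock (log2 fold change 1.57 ± 0.15, SE; edgeR adjusted p = 0.000324). The call of this transcript held in each of 16 alternatives (adjusted p between 8.05e-22 and 0.00909), while those of the other 4 were lost without mock 3, those of Zfp488, Sirt2 and Casr also without mock 1, and that of Zfp488 also without cuprizone 1. Zfp488, a zinc finger factor of oligodendrocyte differentiation, averaged 16.5 ± 1.97 CPM in cuprizone and 9.57 ± 0.715 CPM in mock (edgeR adjusted p = 0.0313, and 0.0004 to 0.177 over the alternatives). At 5 weeks 10 of the 19 measured were at least 2-fold higher and 0 lower, against 8.82% and 12.2% of all genes measured. The median log2 ratio of the 19 was 1.03, and 8 of the 10 reached 5 CPM in both libraries. In that comparison 9630013A20Rik had 153 CPM in cuprizone and 13.3 CPM in mock, 10.7-fold higher (9.49 to 12.2). At 7 weeks 0 of 19 passed 2-fold in either direction, against 14.8% of all genes measured, and the median was -0.34.

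Of 16 other precursor markers, 0 passed edgeR's test at 5.5 weeks and 0 passed by DESeq2 or limma. Their median log2 fold change was 0.13, and 3 had an unadjusted edgeR p under 0.05, against 1755 of all 16086 genes tested. At 5 weeks 2 of the 15 measured were at least 2-fold higher (Pcdh15 and Sox6) and 2 lower (Matn4 and Susd5). Of all genes measured in that week, 8.82% were higher and 12.2% lower by as much. Pcdh15 reached 5 CPM through the cuprizone library alone, and Matn4 and Susd5 through the mock library alone. Pcdh15, a protocadherin, had 11.5 CPM in 5-week cuprizone and 3.82 CPM in 5-week mock, 2.82-fold higher (2.18 to 3.67), and 18.6 CPM in 7-week cuprizone and 5.53 CPM in 7-week mock. At 7 weeks 2 of the 15 measured were at least 2-fold higher (Vcan and Pcdh15) and 2 lower (Neu4 and Susd5), with a median log2 ratio of 0.23. Of all genes measured in that week, 10.8% were higher and 4.03% lower by as much. Of the 5 other genes of the platelet-derived growth factor system, 0 passed at 5.5 weeks by edgeR, DESeq2 or limma, and 0 had an unadjusted p under 0.05. At 7 weeks the receptor Pdgfrb, itself a pericyte marker, and the ligand Pdgfd were more than 2-fold higher. Pdgfd reached 5 CPM in that week through the cuprizone library alone. Pdgfa, which encodes the chain that binds Pdgfra, averaged 29.4 ± 4.65 CPM (SD, n = 3) in 5.5-week cuprizone and 31.1 ± 1.44 CPM (SD, n = 2) in mock (edgeR adjusted p = 0.877), and had 26.6 CPM in 5-week cuprizone and 27.7 CPM in 5-week mock. The 5-week ratio of Pdgfa was 0.895 (0.795 to 1.01), in the week in which its receptor was 1.98-fold lower.

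Among 17 other transcription regulators of the lineage, 1 of 16 tested rose at 5.5 weeks (Zfp488), against 1.08% of all genes tested, and DESeq2 called 2. At 5 weeks 0 of 16 measured were lower by 2-fold or more and 6 were at least 2-fold higher, against 12.2% and 8.82% of all genes measured. Sox6 was among them with a ratio of 2.63 (2.33 to 2.98), and Tcf7l2, a Wnt pathway factor found in newly formed oligodendrocytes, had 220 CPM in cuprizone and 66.8 CPM in mock, 3.07-fold higher (2.89 to 3.26). At 7 weeks Sox8 and St18 were more than 2-fold lower and Sox17, which endothelial cells also express, was higher with 21.3 CPM in cuprizone and 0.132 CPM in mock. The summed level of 8 endothelial markers was 300 CPM in the 7-week cuprizone library, against 2.76 CPM in 7-week mock and 0.673 to 4.61 CPM in the other 7 libraries. Their part in the Sox17 level was not tested.

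**Figure D3:**
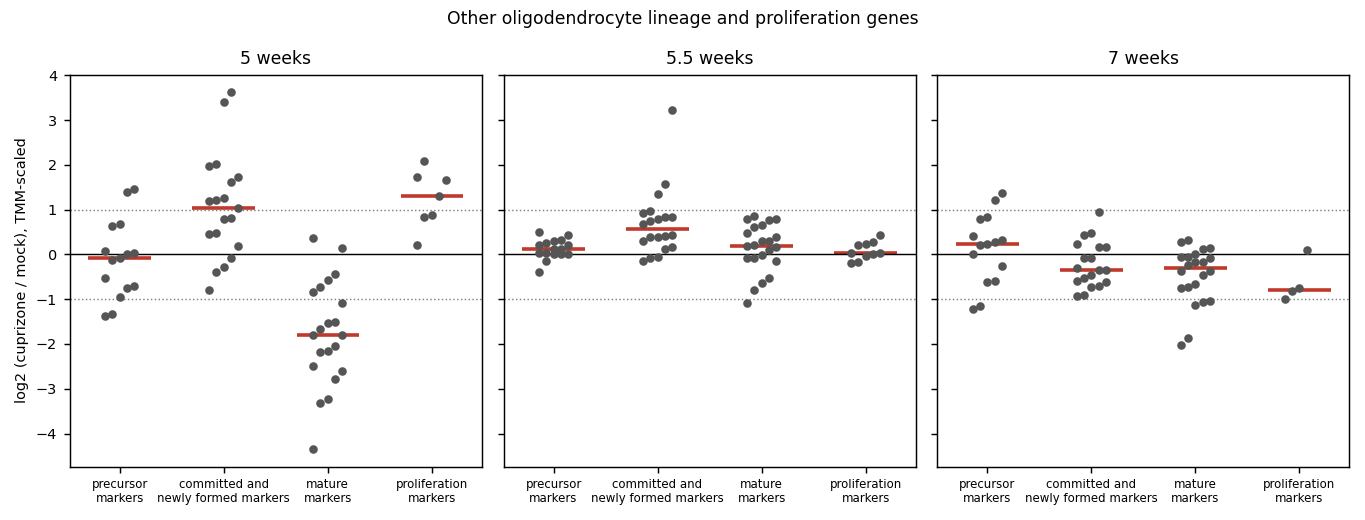
Log2 ratio of cuprizone to mock (TMM-scaled, y axis) for single genes (points) of 4 lists without the 10 genes, 1 panel per week, with the median as a red bar and 2-fold as dotted lines. The medians of the committed and newly formed markers are 1.03, 0.57 and -0.34 at 5, 5.5 and 7 weeks, and that of the mature markers is -1.79 at 5 weeks.

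Mature oligodendrocyte markers were mostly lower in the cuprizone library at 5 weeks. By 2-fold or more, 15 of the 21 measured were lower and 0 higher, against 12.2% and 8.82% of all genes measured. Their median log2 ratio was -1.79. Mal, a myelin proteolipid, had 32.4 CPM in cuprizone and 613 CPM in mock. At 5.5 weeks 5 of 22 rose, among them Mog, Mag, Ugt8a and Tspan2, and 2 fell (Aspa and Anln), all 7 of which lost the call without mock 3 and some also without mock 1, cuprizone 1 or cuprizone 2. Of all genes tested at 5.5 weeks, 1.08% were called higher and 0.392% lower. At 7 weeks 5 of 22 were lower by 2-fold or more and 0 higher, against 4.03% and 10.8% of all genes measured. The summed level of 10 proliferation markers at 5 weeks was 166 CPM in cuprizone and 94.2 CPM in mock, with Mki67 at 11 CPM in cuprizone and 2.36 CPM in mock, while Pdgfra and Cspg4 were lower in the same library. Of the 5 proliferation markers with at least 5 CPM in both libraries, 2 were at least 2-fold higher (Top2a and Mcm5), and Mki67 and Cdk1 reached 5 CPM in the cuprizone library alone. Which cells held Mki67 was not measured, and the summed microglial level was also higher there, with 93.8 CPM in cuprizone and 42.4 CPM in mock.

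At 5.5 weeks, beside the Gpr17 call, edgeR called 1 of 12 astrocyte markers (Gfap, which rose), and 0 of 4 pericyte, 6 fibroblast, 5 endothelial, 9 microglial, 10 neuronal and 10 proliferation markers tested. Of these, 5 microglial markers and 1 fibroblast marker had an unadjusted edgeR p under 0.05, against 1755 of all 16086 genes tested. DESeq2 called 2 of the microglial markers, 0 of the rest and 2 of the astrocyte markers. The summed microglial level was 48.6, 65.3 and 47.9 CPM in 5.5-week cuprizone, against 34 and 40.4 CPM in 5.5-week mock, and its part in the results was not tested.

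The 7-week cuprizone library stood apart in markers of other cell types, as its number of detected genes did. The summed level of 10 microglial markers was 1074 CPM in it, against 51.7 CPM in 7-week mock and 34 to 93.8 CPM in the other 7 libraries, and each of the 10 was at least 2-fold higher than in 7-week mock. Of these 10 markers, 6 reached 5 CPM through the cuprizone library alone and 4 in both libraries. The fibroblast sum over 8 markers did not stand apart, with 56.8 CPM in it and 20.9 CPM in 7-week mock, against 53.9 CPM in 5.5-week mock 1 and 49.1 CPM in 5.5-week cuprizone 3. Single fibroblast markers did differ from 7-week mock. Of the 4 measured, 3 were at least 2-fold higher (Col1a1, Col1a2 and Slc6a13) and 0 lower. Each of the 3 reached 5 CPM through the cuprizone library alone. Slc6a13 had 9.4 CPM in 7-week cuprizone and 0.428 CPM in 7-week mock, and Col1a1 had 10.8 and 0.559 CPM. Pdgfra, which fibroblasts also express, and Cspg4 were read from that library, and the part of these cells in the 7-week ratios was not tested. The summed level of the 10 genes was 644 CPM in that library and 894 CPM in 7-week mock. In plain CPM Olig1, Sox10, Gpr17 and Pdgfra were lower in 7-week cuprizone than in 7-week mock, and Olig2 and Bcas1 were nearly equal. Cspg4, Enpp6, Itpr2 and Myrf were higher. Without Olig1 the other 9 genes summed to 369 CPM in 7-week cuprizone and 335 CPM in 7-week mock. These sums are not on the TMM scale, which moved the 7-week log2 ratios by -0.37. On the TMM scale 7 of the 10 genes were lower in 7-week cuprizone than in 7-week mock. The sum of all 10 was 959, 1043 and 857 CPM in 5.5-week cuprizone, against 792 and 869 CPM in 5.5-week mock, and 860 CPM in 5-week cuprizone, against 634 CPM in 5-week mock.

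**Figure D4:**
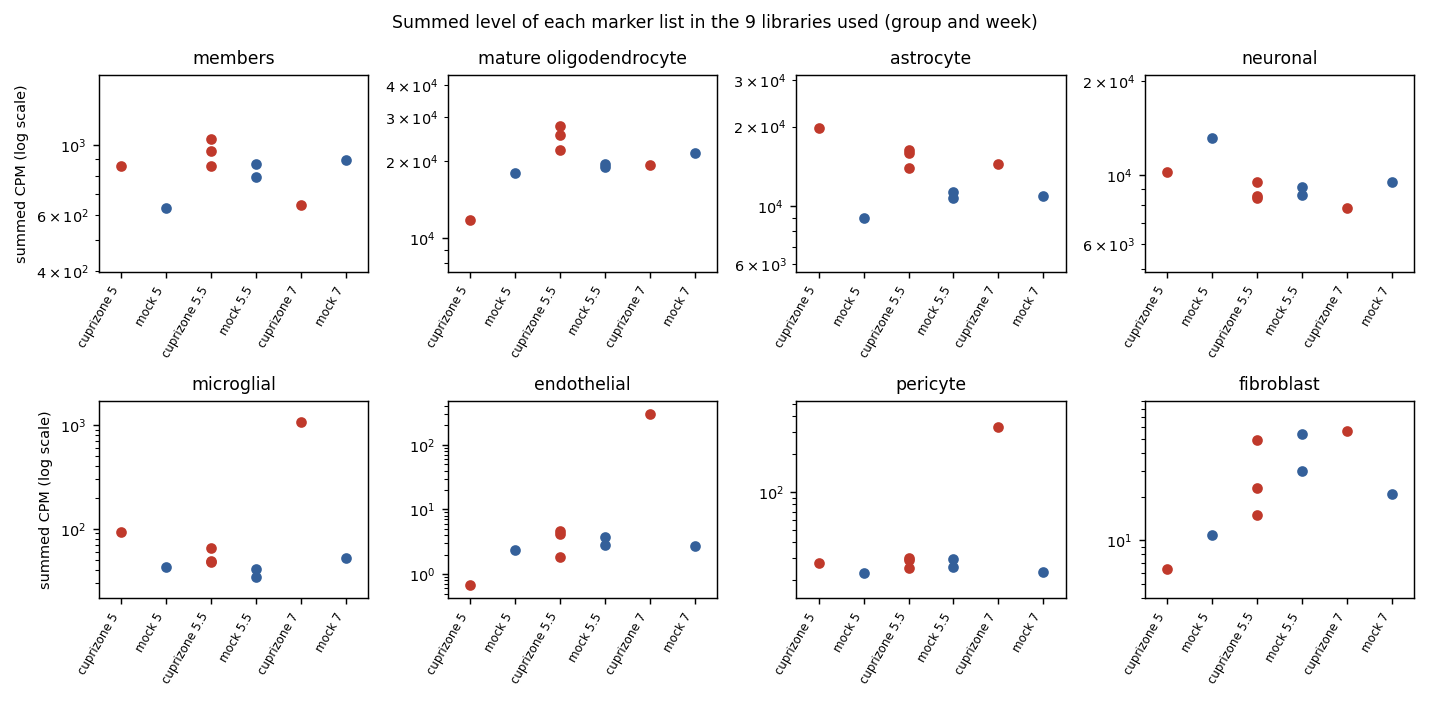
Summed CPM (log axis) of the 10 genes ("members") and of 7 marker lists in each of the 9 libraries used, cuprizone in red left of mock in blue at each week. The 7-week cuprizone library is the highest of the 9 for microglial, endothelial and pericyte markers (1074, 300 and 329 CPM), while its sum over the 10 genes, 644 CPM, is near the lowest (634 CPM in 5-week mock); without Olig1 it is 369 CPM, above the 335 CPM of 7-week mock and the 256 CPM of 5-week mock.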

How the data were processed

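Per the labels, RNA from the pulled-down ribosomes was made into libraries with a low-input kit. The authors deposited whole-number counts per Ensembl gene and library, not normalized. Per the submitters' processing notes the tools were FastQC 0.11.9, STAR 2.5.4b and featureCounts 1.6.0, and the builds GRCm38/mm10 and GRCm39/mm39 are named without saying which library used which. Symbols came from GENCODE M21 (99.4% of batch 1 and 94.0% of batch 2 identifiers).

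A library was taken as a repeat if over 40% of genes with 500 or more counts lay within 10 counts of another library of its group, and the lowest library of each set was used. At 5.5 weeks genes passing filterByExpr (minimum count 10) were tested with edgeR 4.0.16 (R 4.3.3; TMM, robust quasi-likelihood F test, two-sided, Benjamini-Hochberg over all 16086 genes, threshold 0.05). The labels give the libraries as biological replicates, and p-values measure no more than the spread between them. At 5 and 7 weeks log2 ratios (prior count 2) were taken for genes with at least 5 CPM in either library. The code was tested on simulated data. Alternatives included DESeq2 1.42.0 and limma 3.58.1. Same-numbered libraries at 5.5 weeks had correlations of deviations of 0.0388 and -0.0803, so the numbers were not taken to pair mice.

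The 10 genes and all lists were chosen with earlier results of these data known. All 10 genes were named. From each list, values were given for at most the 4 called genes with the largest change at 5.5 weeks, and the 2 with the largest ratio past 2-fold at 5 and 7 weeks. Pdgfa and Lims2 were added after their values were seen, as the ligand of Pdgfra and the gene that overlaps Gpr17. Sox9 was also added after its values were seen, as it lay just under the 2-fold mark. One gene of the mature oligodendrocyte list is counted but not reported here by name.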

Additional observations from a re-analysis of the deposited data

Results flagged for a closer look

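The cuprizone effect differed between weeks for 6 of the 10 genes in the joint edgeR fit of the 9 libraries, tested as interaction terms chosen after the data were seen and adjusted over 20292 genes. For Cspg4 the log2 ratio was higher at 5.5 than at 5 weeks by 2.29 (edgeR adjusted p = 0.00013) and higher at 7 than at 5 weeks by 2.49 (edgeR adjusted p = 0.000183). For Pdgfra it was higher at 5.5 than at 5 weeks by 1.41 (edgeR adjusted p = 0.000242), and the log2 difference of 7 minus 5.5 weeks was -0.82 (edgeR adjusted p = 0.0233). For Itpr2 the difference of 5.5 minus 5 weeks was -2.40 (edgeR adjusted p = 7.51e-06) and that of 7 minus 5 weeks -1.70 (edgeR adjusted p = 0.000931).

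For Gpr17 the difference of 7 minus 5.5 weeks was -1.46 (edgeR adjusted p = 0.000794) and that of 7 minus 5 weeks -1.22 (edgeR adjusted p = 0.00507). For Olig1 these differences were -1.41 (edgeR adjusted p = 0.000201) and -1.20 (edgeR adjusted p = 0.00114). For Bcas1 the difference of 7 minus 5 weeks was -1.43 (edgeR adjusted p = 0.00512). The share of all genes with an adjusted p under 0.05 was 23.2% between 5.5 and 5 weeks, 17.2% between 7 and 5.5 weeks and 32.2% between 7 and 5 weeks, so such differences were common. With scaling by the total count all of these were called again except the Pdgfra difference of 7 minus 5.5 weeks (-0.49, edgeR adjusted p = 0.159), and Olig2 (5.5 minus 5 weeks, -2.24, edgeR adjusted p = 0.0498) and Itpr2 (7 minus 5.5 weeks, 1.04, edgeR adjusted p = 0.019) gained a call. Each contrast with 5 weeks also crosses the batches, and the lone libraries have no spread of their own. No group kept 4 or more libraries, so single libraries were not checked against their group for outlying values.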

How the results depend on the processing

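At 5.5 weeks the count of genes called was 236, and it moved to 543 with no filter on low counts, 136 with a minimum of 1 CPM in 5 libraries, 398 with all 6 deposited libraries, 789 with all 17, 750 with the replicate block, and 65 to 274 when 1 library was left out. The count of the 10 genes called was 1, and it was 2 with DESeq2, 3 with no filter, 2 in the joint fit of 9 libraries, 4 with all 17 libraries, 3 with the replicate block (Pdgfra, Gpr17 and Enpp6), and 0 to 2 when 1 library was left out (0 without mock 3, 2 without cuprizone 3). The replicate numbers are shared by only 2 pairs and do not show which mice belong together. Olig2 and Sox10, never called, turned positive with all 6 libraries (0.10 and 0.06) and with all 17 (0.12 and 0.08). With 1 library left out Olig2 was between -0.46 and 0.31, Sox10 between -0.40 and 0.26 and Olig1 between -0.02 and 0.14. The cause was not tested. At 5 weeks the count past 2-fold was 4. It was 4 or 5 with a repeat in place of a library or the mean of all libraries: Pdgfra was added with cuprizone 2, cuprizone 3 or the mean, Gpr17 with mock 1 (1.02), and Bcas1 was lost with cuprizone 3. The joint fit of 9 libraries called 6 and that of all 17 called 8. At 7 weeks the count past 2-fold was 1, and it was 2 by total-count scaling and 2 with mock 1 in place of mock 3. In both of these the added gene was Itpr2. In the joint fit of 9 libraries Olig1 alone was past 2-fold (log2 ratio -1.35), and Itpr2 was at 0.93. Repeating libraries add no spread between mice, so the p-values of the fits of 6 and 17 libraries are too small. Cspg4 at 5 weeks, with 49 counts, is limited most by depth.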

Other observations

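The mock libraries of 5 weeks, which are from batch 1, differed from later mock libraries for several of the 10 genes. Itpr2 had 8.44 CPM in 5-week mock, against 22.7 and 21 CPM in 5.5-week mock and 17.9 CPM in 7-week mock. Gpr17 had 14.5 CPM in 5-week mock, against 36 and 32.3 CPM in 5.5-week mock and 38.8 CPM in 7-week mock, and Olig2 had 12.8 CPM in 5-week mock, against 22.2 and 37.7 CPM in 5.5-week mock and 22.8 CPM in 7-week mock. Age and batch cannot be told apart in these values.

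In the 7 repeating libraries of 5 and 7 weeks, 0 of the genes with 500 or more counts lay below the library repeated, and 1060 to 3575 lay more than 10 counts above it. In 5.5-week mock 2 the pattern was the reverse, with 0 more than 10 counts above mock 1 and 303 below it.

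Across the 9 libraries and 11211 genes of at least 5 CPM on average, the genes whose log2 level was most like that of Gpr17 were Lats2 (Pearson r = 0.981), Farp2 (0.975) and G6pdx (0.973). Those most like Pdgfra were Lrrn1 and Tmed10 (0.993 each), and the one most like Myrf was Tdrd7 (0.933). These values describe libraries that share batch and week and carry no p. Among the 10 genes themselves the highest such correlation was that of Gpr17 with Myrf (0.82), and that of Cspg4 with Bcas1 was -0.57.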
